A study of Mus musculus with 6 samples.

Results

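The TRIM (tripartite motif) genes in the liver of mice with a mutated TRIM24 RING domain are described here. They were taken as every gene whose name in the deposited tables is Trim followed by a number and at most 1 letter, which gave 56 of the 21528 genes listed in any library. RNA was sequenced from the liver of 3 wild-type (WT) and 3 TRIM24 C52/55A mice of the C57BL/6 strain, all 5 months old and on a high-fat diet (HFD, 60% fat) for 3 months, with 1 library per mouse. In the knockin mice, made with CRISPR/Cas9 on C57Bl/6J, the endogenous TRIM24 carries alanine in place of Cys52 and Cys55 in every cell and is inactive as an E3-ligase. The mutants were homozygotes and the WT mice littermates. The HFD was common to both genotypes, no library of a chow-fed liver was analysed here, and the labels give no sex. The question asked of the TRIM genes was which of them the liver expresses, and whether their mRNA differs between the genotypes.

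TRIM proteins are built from a RING finger, which recruits the E2 ubiquitin-conjugating enzyme and makes most of them E3-ligases, followed by 1 or more B-box zinc fingers and a coiled coil through which they assemble into oligomers. The C-terminal domain sets the subfamily and binds the substrate. Members with a SPRY domain include many factors of antiviral defence and innate immune signalling, and several are induced by interferon. The TIF1 members TRIM24, TRIM28, TRIM33 and TRIM66 carry a PHD finger and a bromodomain and act in the nucleus as transcriptional co-regulators. TRIM24 reads histone marks and binds nuclear receptors such as the retinoic acid receptor, TRIM28 (KAP1) is the co-repressor of KRAB zinc-finger proteins, and TRIM33 takes part in TGF-beta and Smad signalling.

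The RING cysteines changed in the mutants help to hold zinc in the finger, and the corresponding cysteine pairs of the other expressed TIF1 genes are shown for comparison. Each stretch below is 54 bases of the reference coding sequence in exon 1 on the + strand (GENCODE M21, GRCm38), 5′ to 3′, with the 2 cysteine codons in capitals. They lie at chr6:37871243-37871296 with Cys52 and Cys55 for Trim24, at chr7:13024893-13024946 with Cys66 and Cys69 for Trim28, and at chr3:103280272-103280325 with Cys139 and Cys142 for Trim33.
Trim24: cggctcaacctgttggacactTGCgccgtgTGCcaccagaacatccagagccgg
Trim28: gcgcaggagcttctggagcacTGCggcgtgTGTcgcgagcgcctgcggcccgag
Trim33: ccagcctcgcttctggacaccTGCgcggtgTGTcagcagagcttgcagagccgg
Over these 54 bases Trim24 was identical to Trim33 at 38 and to Trim28 at 29 positions, and Trim28 and Trim33 shared 32. The 2 cysteines are 3 residues apart in each protein. The mutation replaces codons without removing the transcript, so the expression level of Trim24 does not check which library carries it.

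The deposited unit is FPKM, in which a gene's fragments are divided by transcript length and by the mapped fragments of the library, and levels of different genes are compared here only on this per-length scale. FPKM summed to 644619 to 648221 in the WT and 673244 to 676791 in the mutant libraries, which are not read depths. The steps between low values put the relative depth of the libraries at 0.962 to 1.035 times that of WT replicate 1. Hepatocyte markers summed to 15300 to 15500 FPKM in the WT and 15000 to 17800 FPKM in the mutant libraries. Of the 5 tested, 2 were lower and 3 higher in the mutant liver. Cps1 had 278, 344 and 340 FPKM in the WT and 495, 421 and 577 FPKM in the mutant livers (limma adjusted p = 0.0281, the only call). This call was lost without WT replicate 1, 2 or 3 or TRIM24 C52/55A replicate 1 or 3. Tat had 620 ± 123 FPKM (SD, n = 3) in the WT and 417 ± 120 FPKM (n = 3) in the mutant liver (limma adjusted p = 0.14). Cps1 and Tat were named after their values were seen. Alb was not among the genes listed. TRIM24 C52/55A replicate 2 stood apart from the other libraries by some adipocyte transcripts, with 4.55 FPKM of Adipoq, 3.98 FPKM of Lep and 3.32 FPKM of Plin1. No other library exceeded 0.127 FPKM of any of them, and these 3 genes were named after their values were seen. Retn was at 1.59 FPKM there and at 0 in every other library. The other markers of the list lay between the WT and the remaining mutant livers in this library. The lipid droplet gene Cidec had 6.12 FPKM, against 9.94 to 25.2 FPKM in the WT and 0.663 and 2.12 FPKM in the other mutants, and Cfd had 2.54 FPKM, against 3.10 to 8.62 FPKM in the WT and 0.112 and 0.821 FPKM in the other mutants. The whole list of 6 markers summed to 22.1 FPKM in this library, 18.6 to 29.3 FPKM in the WT, and 0.774 and 2.94 FPKM in the other mutant libraries. In such bulk samples fewer cells of a type and less RNA per cell cannot be told apart.

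Of the 56 TRIM genes, 44 were above 0 in every library, and 31 had a mean of at least 0.5 FPKM over the 6 libraries, the level required for testing. A mean of 10 FPKM or more was found for 5 members, of 5 to 10 FPKM for 7, of 2 to 5 FPKM for 14, of 1 to 2 FPKM for 3 and of 0.5 to 1 FPKM for 2. The other 25 members were below the filter, 10 of them between 0.1 and 0.5 FPKM and 15 under 0.1 FPKM. The tested members had a median level of 3.59 FPKM, against 5.76 FPKM for all 12225 genes tested. The summed FPKM of the family was 178, 177 and 185 in the WT and 164, 177 and 177 in the mutant libraries, in replicate order, and the groups overlapped. Of the 68 gene names of this form in GENCODE M21, 12 (Trim9, Trim29, Trim31, Trim40, Trim43b, Trim52, Trim54, Trim55, Trim58, Trim60, Trim61 and Trim75) were not analysed here.

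Trim28 was the most abundant member, ahead of Trim25, the ligase that ubiquitinates the viral RNA sensor RIG-I, with 19.3 ± 0.774 FPKM (SD, n = 3) in the WT and 17.7 ± 0.925 FPKM (n = 3) in the mutant liver. The values of Trim28 and Trim25 did not overlap over the 6 libraries. Next came Trim26, an SPRY member encoded near the major histocompatibility genes on chromosome 17, with 12.5 ± 0.172 FPKM (n = 3) in the WT, and Trim41, a ligase for protein kinase C, with 12.4 ± 0.956 FPKM (n = 3). Trim14, which lacks a RING and acts as a mitochondrial adaptor in antiviral signalling, had 10.9 ± 0.639 FPKM (n = 3) in the WT. The ranges of Trim26, Trim41 and Trim14 overlapped over the 6 libraries, so that their order was not separated from the spread between livers. Trim44, which also lacks a RING, had 9.48 ± 0.651 FPKM (n = 3). Below it in the WT liver were Trim8, a regulator of cytokine signalling, with 8.75 ± 0.955 FPKM (n = 3), Trim27, known as RET finger protein, with 7.21 ± 0.426 FPKM (n = 3), Trim3, a brain-enriched NHL member, with 6.89 ± 0.764 FPKM (n = 3), and Trim11, which promotes clearance of misfolded proteins, with 6.36 ± 0.553 FPKM (n = 3). Neighbours in this part of the order overlapped as well. Trim41 shares its interval in the tables with Rack1 on the other strand, as Trim14 does with Nans and Trim28 with Zbtb45. Whether counting used the strand is not given in the sources used here.

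**Figure D1:**
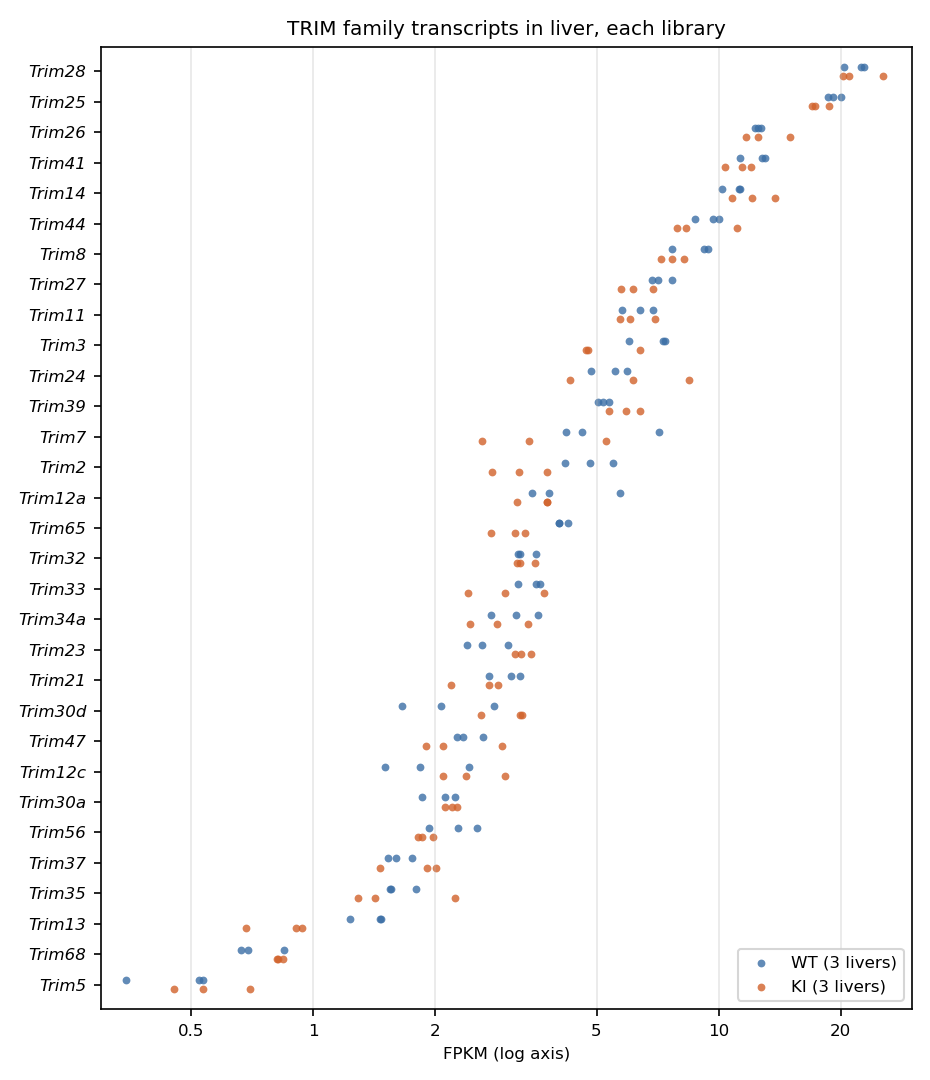
FPKM (log axis) of the 31 tested TRIM genes in each of 3 WT and 3 TRIM24 C52/55A (KI) livers, 1 point per library, ordered by mean level. Trim28 and Trim25 lie near 20 FPKM, most members lie between 2 and 10 FPKM, and the WT and KI points of most genes intermingle.

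The subfamilies differed in how many members the liver expressed. SPRY members were the largest group, with 34 genes, 19 of them tested, and a summed mean of 107 FPKM in the WT and 103 FPKM in the mutant liver. Of 4 TIF1 genes 3 were tested, with sums of 30.8 and 31.6 FPKM. Of 5 members with NHL or filamin repeats, domains that bind RNA or partner proteins, Trim2, Trim3 and Trim32 were tested, with sums of 15.5 and 12.3 FPKM. Of 8 members with another C-terminus 6 were tested, with sums of 26.4 and 24.7 FPKM. Trim80 was not placed in a subfamily and was below the filter, with means of 0.617 FPKM in the WT and 0.276 FPKM in the mutant liver. Its groups overlapped. All 4 COS-box members listed, a class that binds microtubules or is made in muscle, stayed below the filter, with sums of 0.239 and 0.349 FPKM. Trim63, the muscle ligase MuRF1, was among them. Trim72, the membrane-repair protein of striated muscle, was highest in TRIM24 C52/55A replicate 2, at 0.653 FPKM, with no other library above 0.285 FPKM. Trim16 reached 0.463 FPKM in the same library and at most 0.227 FPKM elsewhere. Skeletal muscle markers summed to at most 0.314 FPKM in any library, and 0.0439 FPKM in this one, and Ckm was not listed. These members under the filter were named after their values were seen.

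Each TIF1 gene with detectable expression kept its place in every liver. Trim28 (ENSMUSG00000005566, chromosome 7 from 12999114 to 13031035) had, in replicate order, 20.4, 22.9 and 22.4 FPKM in the WT and 21, 25.5 and 20.3 FPKM in the mutant livers. Trim24 (ENSMUSG00000029833, chromosome 6 from 37870811 to 37966296) had 5.54, 4.85 and 5.96 FPKM in the WT and 6.15, 4.31 and 8.46 FPKM in the mutant livers. Trim33 (ENSMUSG00000033014, chromosome 3 from 103279293 to 103358775) had 3.20, 3.63 and 3.54 FPKM in the WT and 3.70, 2.41 and 2.98 FPKM in the mutant livers. Trim28 was thus above Trim24 and Trim24 above Trim33 in all 6 libraries with no overlap of their ranges, while for each gene the WT values lay inside the range of the mutant values. Trim66, the TIF1 member of the male germ line, was above 0 in WT replicate 2 alone, at 0.0128 FPKM.

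The WT and mutant livers did not differ beyond their spread in any of these transcripts. Values were tested as log2(FPKM + 1) with limma, with Benjamini-Hochberg adjustment over the 12225 genes tested, and fold changes are mutant minus WT on that scale, which understates the change of genes of low FPKM. The log2 fold change of Trim28 was 0.02 (SE 0.10, 95% interval -0.22 to 0.26, limma adjusted p = 0.947). That of Trim24 was 0.14 (SE 0.19, 95% interval -0.30 to 0.59, limma adjusted p = 0.713), and that of Trim33 was -0.16 (SE 0.13, 95% interval -0.46 to 0.15, limma adjusted p = 0.534). The intervals leave out a change of 1 on the log2 scale in either direction for all 3 genes. Exact two-sided permutation tests on FPKM gave p = 0.9 for Trim28, p = 0.6 for Trim24 and p = 0.4 for Trim33, where 3 against 3 livers allow no p below 0.1.

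Trim24 itself varied more between mutant than between WT livers, with a coefficient of variation of 32.9% against 10.3%, a difference that was not tested. The coefficient was also larger in the mutants for Trim33 (21.5% against 6.62%) and Trim28 (12.8% against 6.0%). Its median over the tested members was 12.8% in the mutant and 8.7% in the WT livers. The highest value of Trim24, 8.46 FPKM, came from TRIM24 C52/55A replicate 3 and the lowest, 4.31 FPKM, from replicate 2 of the same genotype. Without replicate 3 the log2 fold change was -0.06, and without replicate 2 it was 0.35 (limma adjusted p = 0.158). Replicate 2, which held Adipoq, Lep and Plin1, also had the lowest Trim33 and the highest Trim28. Without it the log2 fold changes of Trim33 and Trim28 were -0.04 and -0.08. Without TRIM24 C52/55A replicate 1 that of Trim33 was -0.28, and without WT replicate 1 that of Trim28 was -0.03.

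The balance among the 3 TIF1 transcripts was compared within each library, which removes the scaling of the library. Trim28 was 3.68, 4.72 and 3.77 times Trim24 in WT replicates 1 to 3 and 3.41, 5.92 and 2.39 times Trim24 in the mutant replicates. Trim24 was 1.73, 1.34 and 1.68 times Trim33 in the WT and 1.66, 1.79 and 2.84 times Trim33 in the mutant libraries. The mutant libraries thus held both the highest and the lowest Trim28 to Trim24 ratio. Trim24 made up 17.7% ± 1.96 (SD, n = 3) of the summed FPKM of the 3 genes in the WT and 20% ± 6.66 (n = 3) in the mutant liver, without a difference beyond the spread (exact two-sided permutation test, p = 0.7).

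Across the family, 0 of the 31 tested members passed an adjusted p of 0.05 in limma, against 7.72% of all genes tested, with 6.09% called lower and 1.64% called higher in the mutant liver. The lowest adjusted p of a member was 0.0693. At an unadjusted p under 0.05 there were 5 members, 4 lower and 1 higher, or 16.1% against a background of 23.6%. The WT and mutant values did not overlap for 4 members, or 12.9% against 28.9% of all genes tested. Both shares were below those of all genes. Log2 fold changes were below 0 for 19 members and above 0 for 12, so that 61.3% were on the lower side against 65.5% of all genes tested, with medians of -0.05 and -0.075. They ran from -0.46 for Trim2 to 0.36 for Trim30d with a pseudocount of 1 FPKM, and every 95% interval of the 31 lay between -0.94 and 0.70.

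The count was also taken with the libraries scaled in other ways. With TPM, FPKM rescaled to the same total in each library, Trim2, Trim13 and Trim65 passed (limma adjusted p of 0.0392, 0.0482 and 0.0445), or 3 of 33 members tested, where 11.4% of all genes passed and the median of all genes was -0.13. With median-of-ratios scaling 0 passed, where 5.40% of all genes did, and 14 of 31 members were below 0, with a median of 0.03 against 0.006 for all genes, and the genes called split into 249 higher and 410 lower, where FPKM as deposited gave 200 and 744.

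**Figure D2:**
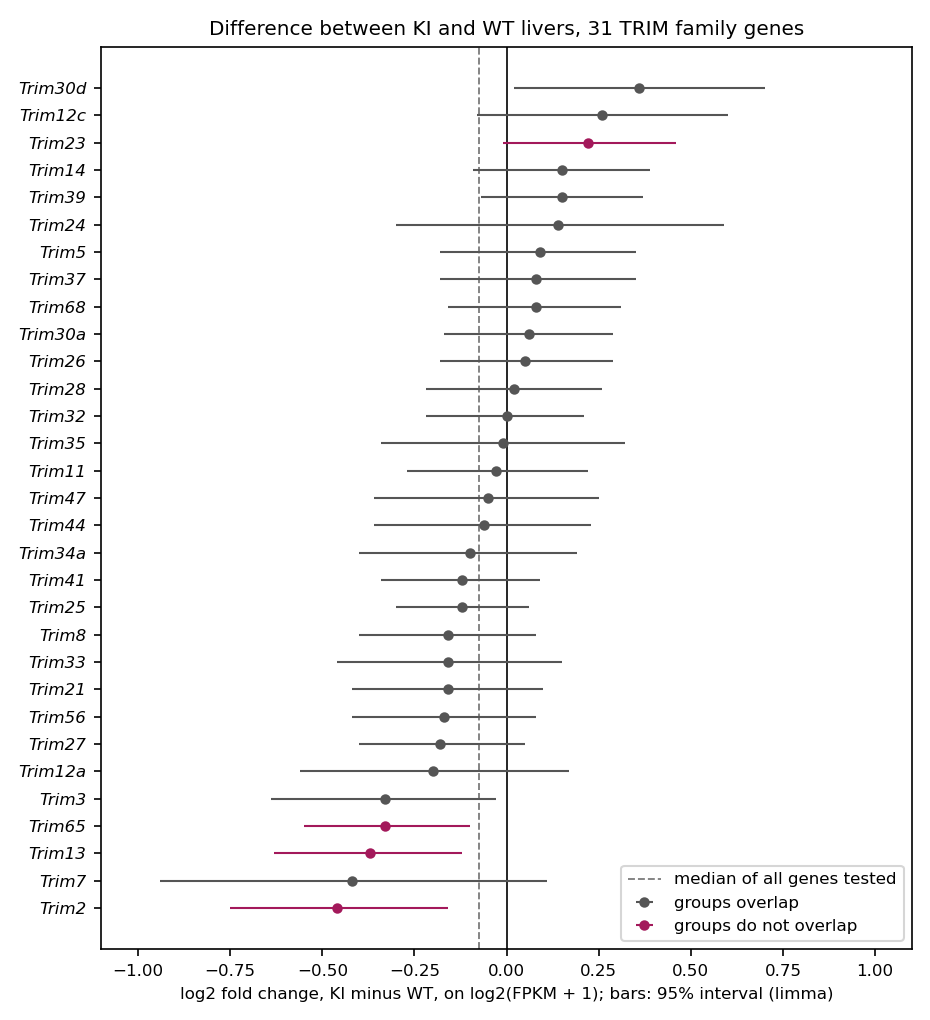
Log2 fold change (mutant minus WT, on log2(FPKM + 1)) of the 31 tested TRIM genes with 95% intervals from limma, beside 0 and the median of all genes tested (-0.075, dashed). Trim2, Trim13 and Trim65, whose groups do not overlap, lie on the lower side, Trim23 on the higher side, and no interval reaches 1 in either direction.

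The 3 members that were lower in every mutant than in every WT liver come from different branches of the family. Trim2, an NHL ligase known for ubiquitination of neurofilament light chain (ENSMUSG00000027993, chromosome 3 from 84160439 to 84306877), had 5.48, 4.82 and 4.19 FPKM in the WT and 2.76, 3.21 and 3.77 FPKM in the mutant livers. The highest mutant liver lay just under the lowest WT liver. Its log2 fold change was -0.46 (SE 0.13, 95% interval -0.75 to -0.16, limma adjusted p = 0.0693), short of the threshold.

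Trim13, anchored in the endoplasmic reticulum and active in degradation of its proteins (ENSMUSG00000035235, chromosome 14), had 1.23, 1.46 and 1.47 FPKM in the WT and 0.682, 0.908 and 0.939 FPKM in the mutant livers. The groups were separate, at low expression. Its log2 fold change was -0.37 (SE 0.11, 95% interval -0.63 to -0.12, limma adjusted p = 0.0801), and with a pseudocount of 0.1 FPKM it was -0.66, below the -0.56 of Trim2. The tables give Trim13 an interval shared with Dleu2, which lies on the other strand, and with Kcnrg, and 14.2% of the 50-base stretches of its transcripts also occur in Gm9359, so that its reads could have been split between genes.

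Trim65, the ligase of the RNA sensor MDA5 (ENSMUSG00000054517, chromosome 11 from 116105752 to 116131128), had 4.03, 4.05 and 4.24 FPKM in the WT and 2.75, 3.33 and 3.15 FPKM in the mutant livers. The WT livers were close to each other and all above the mutant livers. Its log2 fold change was -0.33 (SE 0.10, 95% interval -0.55 to -0.10, limma adjusted p = 0.0853). Trim47, which overlaps Trim65 on the same strand and has the same interval in the tables, had 2.62, 2.26 and 2.34 FPKM in the WT and 1.90, 2.93 and 2.09 FPKM in the mutant livers, which overlapped. The division of reads between these neighbours is uncertain.

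Trim23, which carries an ARF-like GTPase domain (ENSMUSG00000021712, chromosome 13 from 104178797 to 104203372), was the reverse case, with 3.02, 2.39 and 2.61 FPKM in the WT and 3.26, 3.45 and 3.15 FPKM in the mutant livers. Every mutant liver was above every WT liver by a small margin. Its log2 fold change was 0.22 (SE 0.10, 95% interval -0.01 to 0.46, limma adjusted p = 0.239). For each of Trim2, Trim13, Trim65 and Trim23 the exact permutation test gave p = 0.1, the smallest it can give.

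Trim3 had 7.29, 6.01 and 7.38 FPKM in the WT and 4.76, 6.39 and 4.71 FPKM in the mutant livers. TRIM24 C52/55A replicate 2 was above a WT liver and the other mutant livers were below all of them. Its log2 fold change was -0.33 (SE 0.13, limma adjusted p = 0.171), and without replicate 2 it was -0.46 (limma adjusted p = 0.0444), the only call on a member when single libraries were left out. Trim32, the remaining tested NHL member, had 3.33 ± 0.197 FPKM (SD, n = 3) in the WT and 3.31 ± 0.190 FPKM (n = 3) in the mutant liver. Trim7, which binds glycogenin, ranged from 4.20 to 7.11 FPKM in the WT and from 2.61 to 5.27 FPKM in the mutant livers, with the widest interval of the family (log2 fold change -0.42, 95% interval -0.94 to 0.11, limma adjusted p = 0.330). The value of Trim7 was -0.22 without WT replicate 1, -0.23 without TRIM24 C52/55A replicate 1 and -0.63 without TRIM24 C52/55A replicate 3. Trim32 and Trim7 were named after their values were seen.

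**Figure D3:**
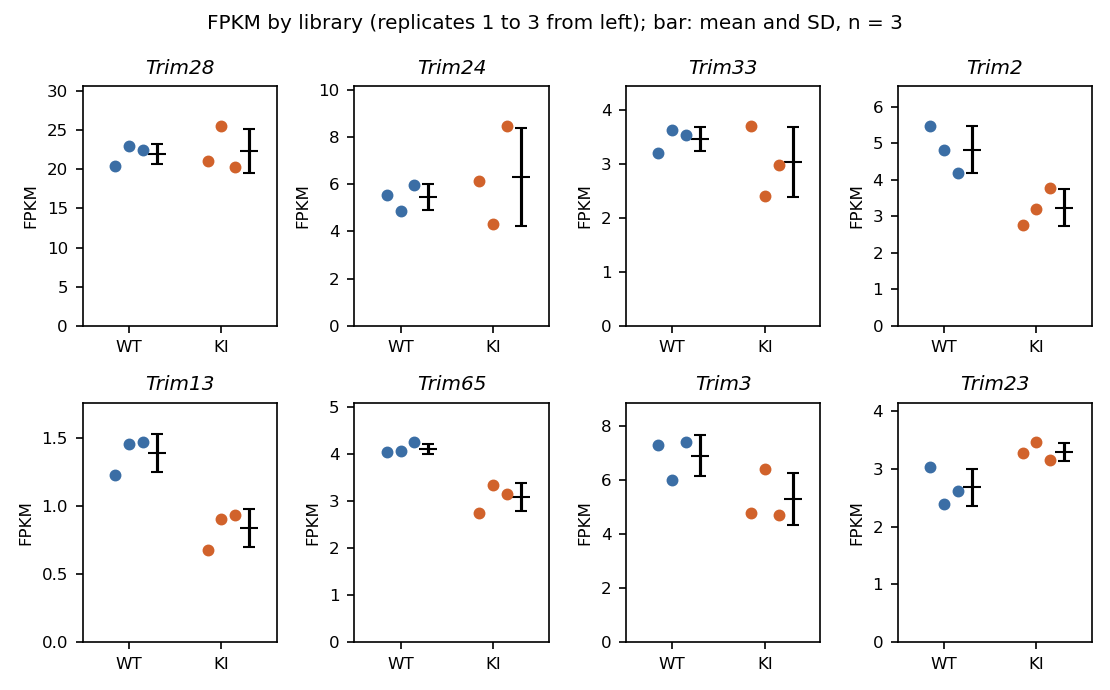
FPKM of 8 TRIM genes in each library (points, replicates 1 to 3 from left to right), with the mean and SD of 3 livers beside each group. Trim28, Trim24 and Trim33 overlap between WT and KI, Trim2, Trim13 and Trim65 are lower and Trim23 is higher in every KI liver, and Trim3 overlaps through KI replicate 2.

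Among the other abundant members the log2 fold changes lay between -0.18 for Trim27 (6.27 ± 0.577 FPKM in the mutant liver, SD, n = 3) and 0.15 for Trim14 (12.2 ± 1.52 FPKM, n = 3), with limma adjusted p of 0.323 and 0.449. Trim25 had -0.12 (95% interval -0.30 to 0.06), Trim41 -0.12, Trim8 -0.16, Trim44 -0.06, Trim11 -0.03 and Trim26 0.05. None of them passed the threshold, and the directions of Trim44, Trim11 and Trim26 turned with the scaling. With median-of-ratios scaling Trim25 had -0.02, Trim41 -0.03, Trim8 -0.07, Trim27 -0.09 and Trim14 0.24. Single libraries moved Trim14 to 0.06 without TRIM24 C52/55A replicate 3 and to 0.23 without replicate 1, Trim41 to -0.07 without replicate 3, and Trim8 to -0.25 without WT replicate 1. The tested members with the highest value in TRIM24 C52/55A replicate 1 numbered 2, and those with their lowest value there numbered 13, more than in any other library.

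Many SPRY members sit in a cluster on chromosome 7 that includes interferon-induced genes, and the promoters of the family were searched for the interferon element. In RefSeq promoter windows (GRCm38.p6, 250 bases before to 50 after the start), the core of the interferon-stimulated response element, GAAANNGAAA on either strand, was present in 3.45% of 32544 windows. Of the 31 tested members 24 had windows in the table, and the letters were found in 10 of their 34 windows (29.4%), belonging to Trim2, Trim5, Trim12a, Trim12c, Trim21, Trim26, Trim30a, Trim30d and Trim34a. Members of the cluster arose by duplication, so their windows are not independent of each other. Windows of 50 bases around the match upstream of the start are shown for 2 of them, 5′ to 3′ on the - strand of the gene, with the match, which is on the other strand, in capitals.
Trim5, chr7:104288126-104288175: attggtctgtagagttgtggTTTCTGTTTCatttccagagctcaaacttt
Trim30d, chr7:104507861-104507910: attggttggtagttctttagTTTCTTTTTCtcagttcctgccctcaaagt
The match began 49 bases before the start of Trim5 and 41 bases before that of Trim30d. Of 2 windows of Trim30a with the match, that upstream of its start was identical to that of Trim30d over all 50 bases and the other, past another start, at 38. Those of Trim12a and Trim12c were identical to that of Trim5 at 50 and 48 bases, the match of Trim12a lying after its annotated start, while Trim5 and Trim30d shared 27. A match of these letters is a description of the window and not a measured binding site.

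The 9 members with the element did not move together. Their mean levels ran from 0.516 FPKM for Trim5, whose primate relative restricts retroviruses, to 12.8 FPKM for Trim26. Their log2 fold changes were below 0 for 4 and above 0 for 5, with a median of 0.05, and 0 passed the adjusted threshold. Trim30d had 1.66, 2.07 and 2.79 FPKM in the WT and 3.23, 2.60 and 3.27 FPKM in the mutant livers, which overlapped (log2 fold change 0.36, SE 0.15, limma adjusted p = 0.190). Trim30a, a brake on NF-kappaB signalling, had 2.07 ± 0.191 FPKM (SD, n = 3) in the WT and 2.19 ± 0.0710 FPKM (n = 3) in the mutant liver. Trim21, the cytosolic antibody receptor, had 3.01 ± 0.256 and 2.59 ± 0.354 FPKM (n = 3 each). Levels of single cluster genes are uncertain, since 39.8% of the 50-base stretches of Trim34a, 36.3% of those of Trim5 and 33.0% of those of Trim12c also occur in other genes, and 7.5% of those of Trim30d. Trim30d, Trim30a and Trim21 were named after their values were seen.

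The interferon response was measured alongside as a list of 40 genes, 39 of them tested. Of these 9 passed the threshold, 8 lower and 1 higher in the mutant liver, where 7.72% of all genes tested passed, 6.09% lower and 1.64% higher. The median log2 fold change of the list was -0.07, near that of all genes. Cxcl10, an interferon-induced chemokine, had 7.01, 6.43 and 6.54 FPKM in the WT and 2.22, 2.42 and 1.29 FPKM in the mutant livers (log2 fold change -1.38, SE 0.15, limma adjusted p = 0.00273). Psmb8, a subunit of the immunoproteasome, had 22, 24.7 and 25.2 FPKM in the WT and 13.0, 15.1 and 11.4 FPKM in the mutant livers (-0.83, SE 0.11, limma adjusted p = 0.00623). In both genes every mutant liver was below every WT liver.

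The GTPases Gbp2 (-0.73, limma adjusted p = 0.0242) and Igtp (-0.67, limma adjusted p = 0.0427) and the peptide transporter Tap1 (-0.66, limma adjusted p = 0.0371) fell too. With single libraries left out these calls were lost, with limma adjusted p of up to 0.0968 for Gbp2 and 0.143 for Igtp without WT replicate 3, and of 0.127 for Tap1 and 0.147 for Igtp without TRIM24 C52/55A replicate 1, and with median-of-ratios scaling of 0.0873 for Igtp and 0.0608 for Tap1. Cxcl10 and Psmb8 passed in all 15 alternatives. The higher gene was the GTPase Iigp1 (log2 fold change 0.46, limma adjusted p = 0.0132), named after its values were seen. Without WT replicate 1 the count of 9 was 2, without WT replicate 2 it was 5, without WT replicate 3 it was 2, without TRIM24 C52/55A replicate 1 it was 3, and with no filter on low values it was 4. All 7 Kupffer cell markers had log2 fold changes below 0 and none passed, although 2 passed without TRIM24 C52/55A replicate 2, with sums of 111 to 142 FPKM in the WT and 96.5 to 132 FPKM in the mutant livers and no defining marker at 0. Lymphocyte markers summed to 2.49 to 3.19 FPKM in the WT and 2.18 to 2.54 FPKM in the mutant livers, and neutrophil markers to 4.83 to 11.3 and 2.04 to 7.88 FPKM. Endothelial markers summed to 74.0 to 80.7 FPKM in the WT and 67.5 to 74.2 FPKM in the mutant livers, and 1 of the 5 passed, Lyve1, with 8.40, 5.25 and 5.00 FPKM in the WT and 0.974, 2.84 and 2.38 FPKM in the mutant livers (log2 fold change -1.26, limma adjusted p = 0.0281). No endothelial marker passed without WT replicate 1, 2 or 3 or TRIM24 C52/55A replicate 1, with the replicate number as a block, or with no filter. The part of these cells in the interferon genes was not tested.

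The partners of the TIF1 proteins were a list of 21 genes, among them nuclear receptors, histone methylation and HP1 genes, and 0 passed in limma, where 7.72% of all genes tested did. Of the 21, 9 were below and 12 above 0, with a median log2 fold change of 0.02 against -0.075 for all genes, and 12 were below 0 with TPM, 3 with median-of-ratios scaling and 2 with quantile normalization, where 73.4%, 48.6% and 47.7% of all genes were. Atf7ip, a partner of the histone methyltransferase SETDB1, had 3.07, 3.05 and 2.40 FPKM in the WT and 3.94, 3.72 and 3.92 FPKM in the mutant livers. Every mutant liver was above every WT liver (log2 fold change 0.34, SE 0.11, limma adjusted p = 0.0947). The other genes of largest change were Mdm2, the ligase of p53 (0.24), Rara, the retinoic acid receptor bound by TRIM24 (-0.22), Cbx5, which encodes an HP1 protein (0.18), and the deacetylase Hdac2 (-0.17), and their groups overlapped. Setdb1 itself, named after its values were seen, was the only other partner without overlap, a pattern found in 28.9% of all genes tested, with a log2 fold change of 0.17 (limma adjusted p = 0.343). Single libraries moved these values, Rara to -0.41 without TRIM24 C52/55A replicate 2 and -0.08 without replicate 1, Mdm2 to 0.14 without TRIM24 C52/55A replicate 3, Hdac2 to -0.07 without the same library, and Cbx5 to 0.09 without WT replicate 1.

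The E2 enzymes that RING ligases work with leaned to lower levels, with 26 of 30 tested genes below 0 and a median of -0.16, against 65.5% of all genes below 0. In limma 1 of the 30 passed, where 7.72% of all genes tested did. Ube2e2 had 19.5, 21.3 and 21.7 FPKM in the WT and 14.7, 13.8 and 15.2 FPKM in the mutant livers (log2 fold change -0.49, SE 0.08, limma adjusted p = 0.0136). Every mutant liver was below every WT liver. Ube2c, the E2 of the anaphase-promoting complex (-0.65, limma adjusted p = 0.0520), Ube2a (-0.28, limma adjusted p = 0.0676), Ube2d3, used by many RING ligases (-0.27, limma adjusted p = 0.0598), and Ube2v2 (-0.28, limma adjusted p = 0.253) had values below 0 without passing. Ube2c passed with a pseudocount of 0.1 FPKM (-1.37, limma adjusted p = 0.0429), with TPM (-0.84, limma adjusted p = 0.0332), with a robust trend (limma adjusted p = 0.0464) and without WT replicate 1 (-0.82, limma adjusted p = 0.0359). With TPM 5 E2 genes passed and 29 were below 0, where 11.4% of all genes passed and 73.4% were below 0. With median-of-ratios scaling 1 passed and 22 were below 0, where 5.40% of all genes passed and 48.6% were below 0. Without WT replicate 2, WT replicate 3 or TRIM24 C52/55A replicate 1 the count was 0 (limma adjusted p of Ube2e2 0.0543, 0.0658 and 0.0523), and without WT replicate 1 or TRIM24 C52/55A replicate 2 it was 2. With a pseudocount of 0.1 FPKM or a robust trend 2 passed.

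TRIM proteins known under other names were measured too, and none of the 3 listed passed the threshold. Pml (TRIM19), the scaffold of nuclear bodies, had 5.66 ± 0.192 FPKM (SD, n = 3) in the WT and 5.92 ± 0.849 FPKM (n = 3) in the mutant liver (log2 fold change 0.05, limma adjusted p = 0.832). The microtubule-bound COS-box ligase Mid1 had 1.1 ± 0.237 and 0.987 ± 0.141 FPKM (n = 3 each), and Mid2 0.856 ± 0.0473 and 0.788 ± 0.0566 FPKM (n = 3 each), with log2 fold changes of -0.08 and -0.05. Both exceeded every COS-box gene named Trim in these livers.

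**Figure D4:**
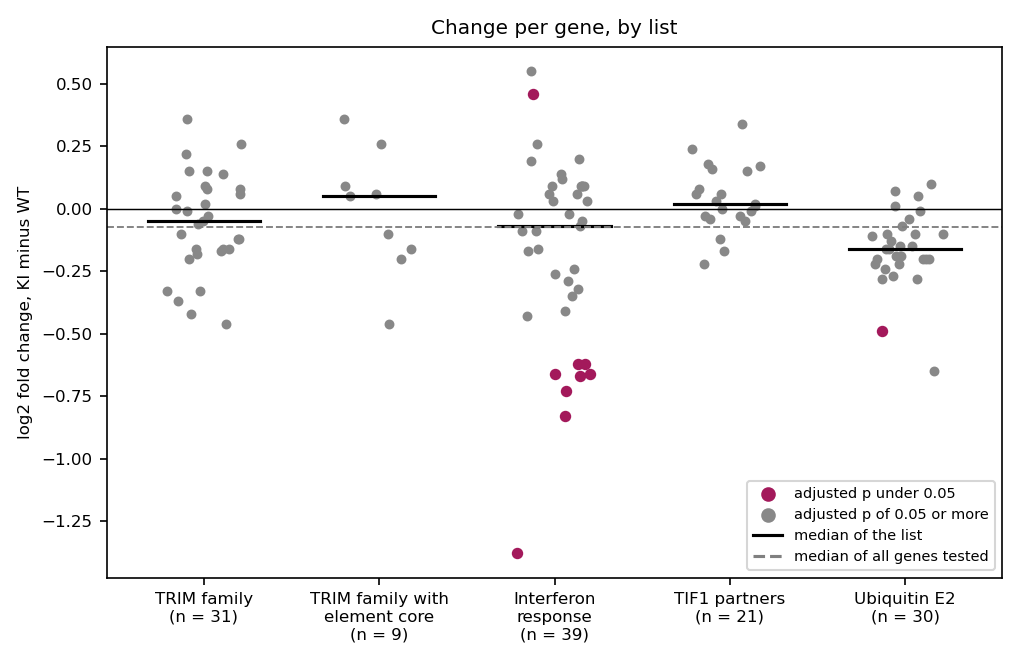
Log2 fold change (mutant minus WT) of each tested gene in 5 lists, with the median of the list (black bar) and of all genes tested (dashed). Dark points are genes called, 0 of 31 TRIM genes, 9 of 39 interferon response genes, 0 of 21 TIF1 partners and 1 of 30 E2 genes, where 7.72% of all genes tested are called.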

How the data were processed

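The authors deposited FPKM, 1 table for each of 3 WT and 3 TRIM24 C52/55A livers, with no counts. The submitters' processing notes name bcl2fastq, Salmon 0.14.0, DESeq2 1.30.0 and GRCm38; which of them made the FPKM, and the annotation, are not given in the sources used here. Each table lists only values above 0. A gene listed in some tables and missing from another was taken as 0 there, which the tables do not state, and genes in no table, Alb among them, were not analysed here. There were 0 other columns of per-sample values. Depth is unknown beyond the relative values given, and the number of livers limits the precision. Libraries were grouped by genotype label.

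The 12225 genes averaging 0.5 FPKM or more over the 6 libraries entered limma 3.58.1 (R 4.3.3) as log2(FPKM + 1) (lmFit, then eBayes with trend, two-sided, Benjamini-Hochberg adjustment over all genes tested). Exact permutation tests used scipy 1.17.1, and pandas 2.3.3, numpy 2.4.6, matplotlib 3.10.9 and Python 3.11.15 were used for the rest. On simulated data for this comparison, limma recovered 90.3% of 103 genes with a log2 change of 1 and 99.0% of 97 with 2. There were 17 calls among 12025 unchanged genes, in a fit of 12046 genes. In a fit of 12056 genes with none changed, limma called 0 genes. Recovery was not tested separately for genes of low FPKM. All 56 members were found in GENCODE M21 by identifier. Stretches of 50 bases of their transcripts were searched in all other genes.

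Named were Trim24, Trim28, Trim33 and Trim66, members past the threshold or without overlap, the 10 most abundant members, any tested member whose highest library exceeded 3 times the second (none did), Pml, Mid1, Mid2, and at most 5 genes per list by size of change. The members, lists and tests were chosen with earlier results of these data known. Alternatives were a pseudocount of 0.1, a filter of 1 FPKM or none, scaling by TPM, median of ratios or quantiles, eBayes without trend or robust, the replicate number as a block, and each library left out.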

Additional observations from a re-analysis of the deposited data

How the results depend on the processing

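Over 15 alternatives, the 944 genes called in all became 347 with no filter, 1488 with TPM, 578 with the replicate block, and 294 (without TRIM24 C52/55A replicate 1) to 1280 (without TRIM24 C52/55A replicate 2) when single libraries were left out, with 311, 475 and 300 without WT replicates 1, 2 and 3. The 0 TRIM genes called became 3 with TPM and ranged from 0 to 1 when libraries were left out. The log2 fold change of Trim24 ranged from -0.06 to 0.35 and that of Trim28 from -0.08 to 0.08 when libraries were left out, and with TPM that of Trim28 was -0.05. Signs turned with TPM for Trim26 (-0.01) and Pml (-0.01), with median-of-ratios scaling for Trim44 (0.03) and Trim11 (0.06), and with quantile normalization for Trim44 (0.03) and Trim11 (0.05). They also turned without TRIM24 C52/55A replicate 2 for Trim26, Pml and Trim44, without WT replicate 3 for Trim11 and Mid1, and without TRIM24 C52/55A replicate 1 for Trim11. When libraries were left out, Trim26 ranged from -0.05 to 0.12, Trim44 from -0.20 to 0.02, Trim11 from -0.10 to 0.03, Mid1 from -0.15 to 0.01 and Pml from -0.05 to 0.11. Trim33 kept a value below 0 in all 15, from -0.28 to -0.04. With quantile normalization Igtp and Tap1 no longer passed (limma adjusted p of 0.0892 and 0.0615). The causes were not tested.

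No pairing of the livers by replicate number was seen, though 3 libraries per genotype cannot exclude it. Deviations of same-numbered libraries from their group means correlated at -0.123, -0.099 and 0.003 across genes, and no library correlated best with its own number. With the number as a block 0 TRIM genes passed, and Gbp2 and Tap1 no longer passed (limma adjusted p of 0.0556 and 0.0944). Lyve1 no longer passed either. FPKM without counts give no depth per gene, and 3 livers per genotype limit what can be told apart among members of low FPKM.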
